A study of Mus musculus with 2 samples.

Results

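Nuclear hormone receptors are transcription factors, most of which are switched by small lipophilic ligands, and 38 of their genes were examined in mouse liver after injury to the kidneys. These genes are the ones on a fixed list of receptor symbols, read by every probe set of the array whose annotation names that gene alone. Of the 38 genes, 37 had at least 1 such probe set, 100 probe sets in all, against 18193 genes with such a probe set on the whole array; the oxysterol receptor Nr1h2 had none and was not analysed here. The liver RNA came from male wild-type C57BL/6 mice, 8 weeks old. In the group labelled acute kidney injury, both kidneys had 30 minutes of warm ischaemia and were then reperfused, while the other group had a sham operation without it. Livers were collected 24 hours after surgery, and frozen liver of 3 mice per group, 100 mg, was combined into 1 pool and hybridised to 1 array. There were therefore 2 samples and no replicates, so no test could be made, the spread between mice is unknown, and each difference below describes these pools only.

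A typical receptor of this family has a zinc finger domain that reads a short DNA half-site and a second domain that holds the ligand. Many receptors of hepatocytes, among them those for bile acids, fatty acids, oxysterols, drugs and thyroid hormone, bind DNA as pairs with a retinoid X receptor (RXR). Others act as pairs of their own kind, like the steroid receptors, or alone, like the REV-ERB repressors of the circadian clock. In liver they are known for setting bile acid synthesis, drug clearance, fasting metabolism and the daily rhythm of transcripts.

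Each probe set has a signal in linear units. A signal was called dim when it lay under the median of its array, 257.0 for the sham pool and 254.1 for the kidney injury pool. Differences are log2 of the signal plus 16 in the kidney injury pool minus the same in the sham pool, which understates the change of dim genes. A gene was measured when 1 of its signals reached the array median, and of its measured probe sets the brightest stood for it. By this rule 26 receptors were at or above the median in both pools, 4 in the sham pool only and none in the kidney injury pool only, while 7 were dim in both. The dim receptors were Ppard, Pparg, Rxrg, Rara, Vdr, Hnf4g and Nr2f1. The 6 markers of hepatocytes, namely Alb, Apoa1, Ttr, Apoh, Serpina1c and Fgb, were all measured, and none was dim.

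By their brightest measured probe sets, most receptors had a lower signal after kidney injury and none was at least 2-fold higher. A second probe set of Rxra was 2.07-fold higher. Among the 26 receptors that were not dim in either pool, 21 (80.8%) had a lower signal and 5 a higher one, whereas 50.8% of the 10923 genes selected the same way had a lower signal. The log2 difference had a median of -0.38 over these receptors and of -0.01 over those genes. A difference of at least 2-fold was seen for 4 receptors (15.4%), all lower, where 6.17% of the genes were lower and 5.14% higher by as much. At 1.5-fold the receptors numbered 10 lower and 0 higher, against 15.4% and 14.8% of the genes. With the 4 receptors that were dim after kidney injury added, which could enter only by being brighter in the sham pool, 8 of 30 (26.7%) were at least 2-fold lower by the measured signals, where 9.59% of 13117 genes were lower and 8.71% higher. With dim signals raised to the array median, 4 of the 30 were lower by as much, where 6.62% of the genes were. The plot of cumulative shares shows the receptors shifted to lower values over most of its range.

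**Figure D1:**
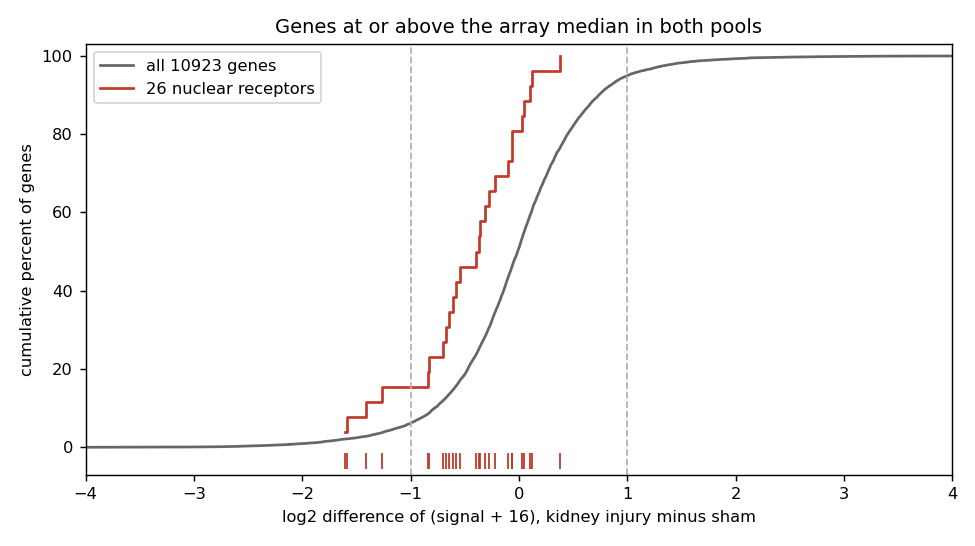
The x axis is the log2 difference of signal plus 16, kidney injury minus sham, and the y axis the cumulative percent of genes, for the 26 nuclear receptors (red steps, each also a tick at the bottom) and all 10923 genes (grey line) that reached the array median in both pools, with dashed lines at a 2-fold difference. The receptors have a median of -0.38 against -0.01 for the genes, and no receptor lies beyond the dashed line on the right.

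The arrays differed in their spiked controls, which touches every difference. Of 30 probe sets for bacterial and phage controls, 26 were brighter on the kidney injury array, with a median log2 difference of 0.29. Set against these controls, the median of all genes would be -0.30 and that of the 30 measured receptors -0.85, and 27.0% instead of 47.6% of the 2-fold differences over all genes would be higher ones. Statements of direction below hold on the deposited scale, and the receptors that would change sign on the control scale are named where they occur.

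The farnesoid X receptor Nr1h4 and the constitutive androstane receptor Nr1i3 had nearly equal differences, and both were about 3-fold lower. Nr1h4 senses bile acids and restrains their synthesis. Its signal of 1816.2 after sham surgery compared with 592.4 after kidney injury, a log2 difference of -1.59 (3.01-fold lower). Nr1i3, which drives the clearance of drugs and bilirubin, had signals of 2262.9 and 732.9, a log2 difference of -1.61 and 3.04-fold lower. Each was read by 1 probe set, so no other probe set of the gene bears on either value.

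Other receptors of bile acid and drug sensing were lower by less, or not lower. The pregnane X receptor Nr1i2, a sensor of drugs and steroids, went from 778.1 to 492.8, a log2 difference of -0.64, and its other probe set stood at -0.54. The small heterodimer partner Nr0b2, which lacks a DNA-binding domain and is induced by Nr1h4 to repress bile acid synthesis, went from 1546.9 to 1030.8, a log2 difference of -0.58. For Nr5a2, liver receptor homologue that activates bile acid synthesis genes, the signals were 1041.8 and 1120.9. Its log2 difference of 0.10 would be negative on the control scale, and its other measured probe sets stood at -0.10 and -0.82, so no direction can be given.

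The clock receptor Nr1d2 and the orphan receptor Nr2f2 were the other receptors at least 2-fold lower with neither signal dim. Nr1d2, or REV-ERB beta, represses transcription on a daily cycle and had signals of 2824.0 and 1049.3, a log2 difference of -1.41 (2.67-fold lower). Its second probe set differed less, from 828.9 to 556.9 (-0.56), which is under 2-fold. Nr2f2, or COUP-TFII, is known in liver from endothelial and stellate cells as well as hepatocytes. It had signals of 1463.7 and 599.8, a log2 difference of -1.26 and 2.40-fold lower. Of its 2 other measured probe sets, each dim after kidney injury, 1 went from 388.8 to 168.4 (-1.13) and 1 from 304.6 to 212.9 (-0.49).

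Sequence before the start of transcription is shown for these receptors because they were lower together, and for Nr1d1, the nearest relative of Nr1d2, because its difference was smaller. The windows are the 250 bases before the RefSeq start in GRCm38.p6, 5′ to 3′ on the strand of the gene, and capitals mark a match on either strand to a motif named after them.

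Nr1h4, chr10:89506659-89506908, minus strand: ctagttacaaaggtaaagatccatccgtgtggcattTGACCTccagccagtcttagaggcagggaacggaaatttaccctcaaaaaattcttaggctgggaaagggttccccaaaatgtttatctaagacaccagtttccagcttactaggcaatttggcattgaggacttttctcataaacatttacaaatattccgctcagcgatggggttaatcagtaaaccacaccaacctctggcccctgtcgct
Nr1i3, chr1:171213720-171213969, plus strand: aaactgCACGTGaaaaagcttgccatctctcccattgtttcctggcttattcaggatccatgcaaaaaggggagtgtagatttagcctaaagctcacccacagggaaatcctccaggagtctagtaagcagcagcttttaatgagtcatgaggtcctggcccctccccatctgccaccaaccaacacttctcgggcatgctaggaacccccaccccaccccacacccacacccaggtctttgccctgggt
Nr1d2, chr14:18239107-18239356, minus strand: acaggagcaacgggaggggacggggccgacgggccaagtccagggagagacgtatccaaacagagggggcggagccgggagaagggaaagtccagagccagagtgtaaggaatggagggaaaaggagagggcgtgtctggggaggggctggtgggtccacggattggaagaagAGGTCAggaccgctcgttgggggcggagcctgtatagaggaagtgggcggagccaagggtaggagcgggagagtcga
Nr2f2, chr7:70366747-70366996, minus strand: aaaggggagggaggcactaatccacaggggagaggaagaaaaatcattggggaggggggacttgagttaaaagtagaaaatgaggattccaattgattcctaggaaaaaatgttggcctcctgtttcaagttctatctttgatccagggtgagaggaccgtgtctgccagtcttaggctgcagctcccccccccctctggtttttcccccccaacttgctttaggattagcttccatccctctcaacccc
Nr1d1, chr11:98775378-98775627, minus strand: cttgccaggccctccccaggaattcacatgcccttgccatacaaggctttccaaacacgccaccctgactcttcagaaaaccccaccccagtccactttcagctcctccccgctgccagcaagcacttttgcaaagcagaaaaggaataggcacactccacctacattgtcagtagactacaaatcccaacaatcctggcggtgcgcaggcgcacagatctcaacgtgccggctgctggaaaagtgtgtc

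The motifs were the receptor half-site AGGTCA, the E-box CACGTG bound by clock factors, the cAMP response half-site TGACG and the STAT site TTCNNNGAA. In the printed windows no match overlaps another. A half-site begins 214 bases before the start of Nr1h4, in reverse orientation, and another 77 bases before that of Nr1d2. Nr1i3 has an E-box 244 bases before its start, and the windows of Nr2f2 and Nr1d1 have none of the 4 motifs. RefSeq windows were matched for 35 of the 38 receptor genes, and 9 of these (25.7%) have the half-site in at least 1 window, against 15.8% of all 27025 genes with a window. Receptor genes had more windows each, 1.54 against 1.22 over all genes, which favours a match. The E-box was in 4 receptor genes (11.4%, against 6.86% of all), the STAT site in 4 (11.4%, against 8.13%) and the cAMP half-site in 10 (28.6%, against 19.8%), among them Nr4a1, Nr4a2 and Nr4a3. By windows, 54 of receptor genes among 32851 in all, the half-site was in 18.5% against 14% of all, the E-box in 7.41% against 6.02%, the STAT site in 7.41% against 7.02% and the cAMP half-site in 18.5% against 17.8%. These are matches of letters and were not tested as binding sites.

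**Figure D2:**
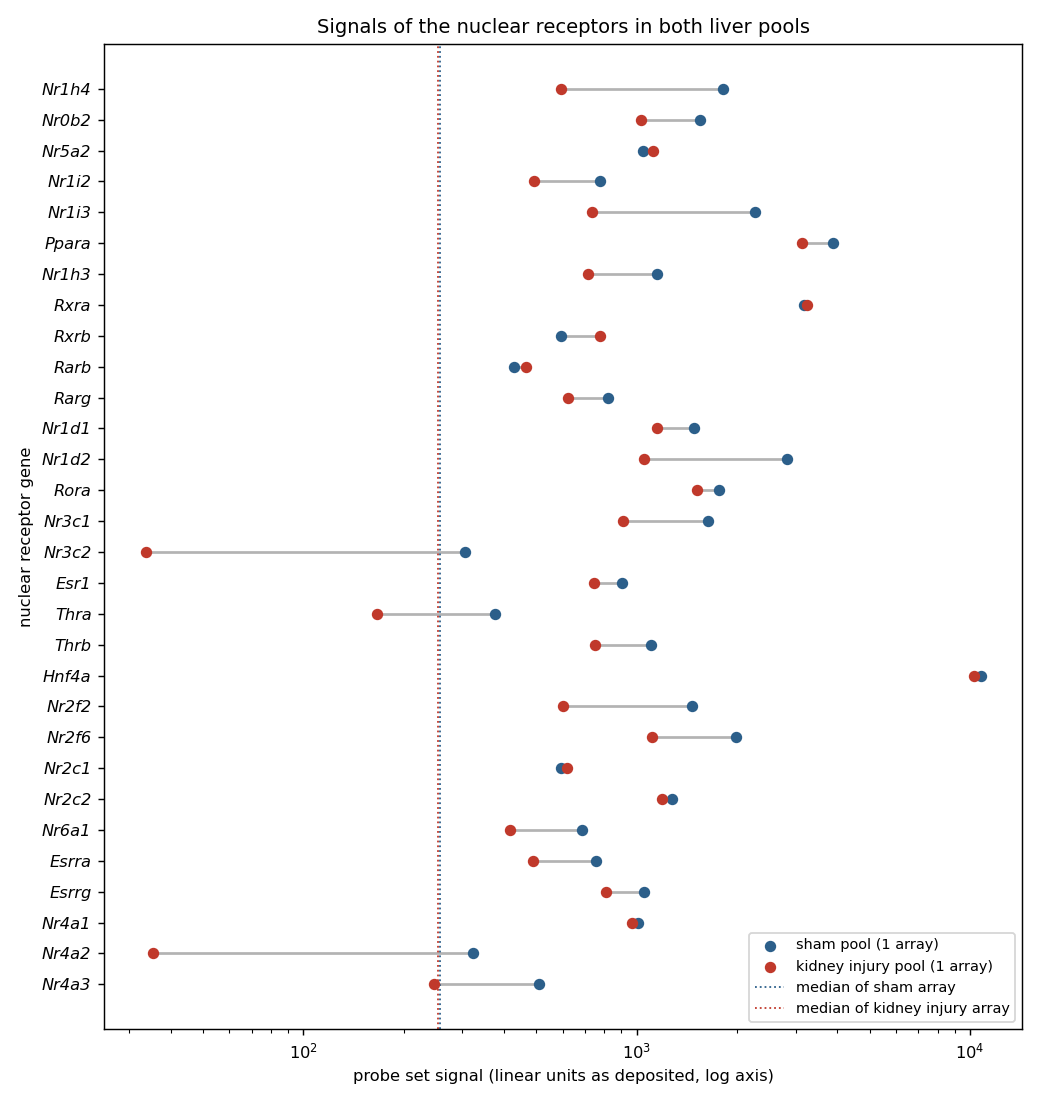
Signal of the probe set that stands for each of the 30 measured receptors, in linear units on a log axis, with the sham pool in blue, the kidney injury pool in red and a grey line joining the values of a gene. Dotted lines mark the array medians of 257.0 and 254.1. Signals can be compared within a row only. The red point lies left of the blue one in 25 of the 30 rows, 4 of which could enter only by being brighter in the sham pool. Among the 26 receptors dim in neither pool it does so for 21, where 50.8% of the 10923 genes selected the same way were lower.

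The other clock receptors differed little. Nr1d1, or REV-ERB alpha, had signals of 1484.6 and 1154.5, a log2 difference of -0.36 from its 1 probe set. Rora, which activates the same response elements that the REV-ERB proteins repress, had signals of 1772.5 and 1518.4 (-0.22). Rora had the most probe sets of any receptor, 9 of them with 8 measured, and these ranged from -0.50 to 0.06 with 5 lower and 3 higher. Thus Nr1d2 was the only clock receptor here past 2-fold, by 1 of its 2 probe sets. The labels give no hour of day at which livers were taken.

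Receptors for fatty acids and oxysterols were lower by less than 2-fold or dim. Ppara, the fasting receptor of hepatocytes, had signals of 3892.6 and 3139.8, a log2 difference of -0.31. All 3 of its probe sets were lower, by little, from -0.31 to -0.11. Nr1h3, or LXR alpha, which senses oxysterols and raises sterol export and fatty acid synthesis, had signals of 1150.7 and 715.7 (-0.67). Both Ppard (27.0 and 32.9, and 60.5 and 97.7 by a second probe set) and Pparg (91.4 and 27.7) were dim in each pool, so no fold is given.

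The retinoid X receptors, the shared partners, were not lower on the deposited scale. Rxra, the main form in liver, had signals of 3188.1 and 3249.9, a log2 difference of 0.03 that would be negative on the control scale. A second probe set of Rxra went from 1922.4 to 3998.3 (1.05), the only measured probe set of any receptor that was at least 2-fold higher. Rxrb had signals of 592.9 and 775.3, a log2 difference of 0.38, and kept its sign on the control scale at 0.09. Rxrg was dim, at 78.3 and 111.8.

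Receptors that pair with RXR were mostly lower beside it. This group was put together after the values were seen, so it describes them only. Of 14 receptors taken as such partners, 8 were not dim in either pool. Of these, 7 had a lower signal, 2 of them at least 2-fold lower. Over all 26 receptors dim in neither pool, 21 (80.8%) were lower and 4 (15.4%) at least 2-fold lower. Lower signals were therefore not particular to RXR partners. Of the genes selected the same way, 50.8% were lower and 6.17% at least 2-fold lower. The log2 differences of the 8 partners ran from -1.61 for Nr1i3 to 0.12 for Rarb. Their median was -0.59, against -0.38 over the 26 receptors.

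Among the retinoic acid receptors, which read the active form of vitamin A, Rarg was lower and Rarb differed little. Rarg had signals of 822.7 and 620.7 (-0.40). Rarb had signals of 427.7 and 465.1, a log2 difference of 0.12 that would be negative on the control scale. Rara was dim in both pools, at 201.6 and 72.7.

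The glucocorticoid receptor Nr3c1, which mediates the response to stress steroids, was lower by every measured probe set. The brightest had signals of 1638.4 and 909.2, a log2 difference of -0.84 (1.79-fold lower). A second gave nearly the same difference, from 1042.9 to 574.4 (-0.84), and another went from 533.9 to 382.4 (-0.46). The fourth, which can cross-hybridise, went from 447.2 to a dim 82.9 (-2.23). Its remaining 2 probe sets were dim in both pools and had the higher signal after kidney injury, at 93.5 and 182.6 and at 84.5 and 231.2. The mineralocorticoid receptor Nr3c2 had signals of 304.9 and 33.7. Because the second is dim, only a bound against the array median can be given, at least 1.19-fold lower.

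Both thyroid hormone receptors were lower. Thrb, the main form in hepatocytes, had signals of 1104.8 and 751.9 (-0.55). Thra went from 375.9 to a dim 166.2, at least 1.45-fold lower. All 3 probe sets of Thra went the same way, the others from 266.2 to 71.1 and from 297.6 to 61.3.

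Esr1, the oestrogen receptor alpha, could not be given a direction. Its brightest probe set went from 906.9 to 745.7 (-0.28) and a dimmer one from 232.6 to 333.7 (0.49). The vitamin D receptor Vdr was dim in both pools by both probe sets, at 176.5 and 125.6 and at 236.9 and 101.1. Esrra and Esrrg, orphan receptors of mitochondrial gene control, were lower by less than 2-fold. Esrra had signals of 754.5 and 490.2 (-0.61). Esrrg had signals of 1052.4 and 809.5 (-0.37), and its other measured probe set stood at -0.07.

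Hnf4a, the receptor that sustains hepatocyte identity, hardly differed between the pools. Its brightest probe set had signals of 10775.4 and 10317.0, a log2 difference of -0.06, and can cross-hybridise. The 4 probe sets of Hnf4a lay between -0.26 and 0.27 with 2 on each side of 0, so no direction can be given. Hnf4g was dim by all 3 of its probe sets, none above 62.1.

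The COUP-TF relative Nr2f6 was lower, and the testicular receptors had probe sets that disagreed. Nr2f6, an orphan repressor, had signals of 1984.7 and 1112.9 (-0.83, 1.77-fold lower). Nr2c1 had signals of 594.1 and 616.4 by its brightest probe set, a log2 difference of 0.05 that would be negative on the control scale. Its 3 other measured probe sets were lower, from -1.04 to -0.36, so the gene has no settled direction. Nr2c2 had signals of 1276.4 and 1188.0 (-0.10), with 4 measured probe sets from -0.10 to 0.96. The germ cell factor Nr6a1 went from 687.2 to 417.2 (-0.70), and its 3 measured probe sets were all lower, the smallest difference being -0.01. Nr2f1 was dim, at 9.8 and 68.5.

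The NR4A receptors are ligand-independent immediate early genes. Nr4a1 had signals of 1012.9 and 968.6, a log2 difference of -0.06. Nr4a3 went from 510.8 to 245.8, just under the median, and was at least 1.95-fold lower. Nr4a2 went from 323.3 to 35.3 by its only measured probe set, at least 1.26-fold lower, and its 5 others were dim in both pools. None of the NR4A receptors was higher.

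**Figure D3:**
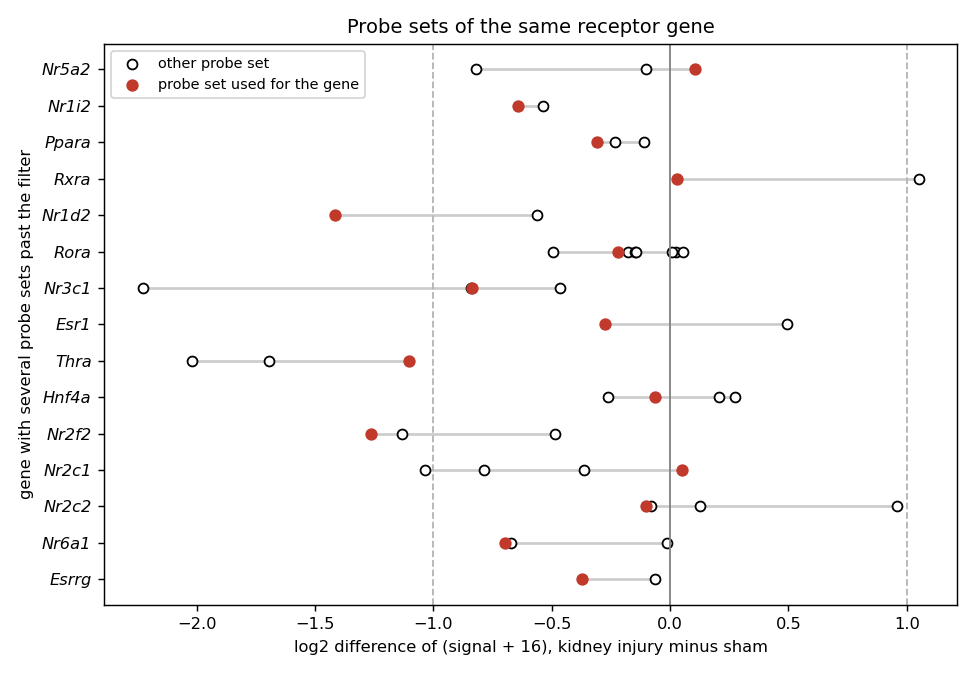
Each row is a receptor gene with several measured probe sets, and the x axis is the log2 difference of signal plus 16, kidney injury minus sham. Red points are the probe sets that stand for the gene and open points the others, with dashed lines at 2-fold. In 9 of the 15 genes all points lie on the same side of 0, and in 6 they do not.

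Disagreement between probe sets of a gene shows how far its difference depends on the probe set read. It does not measure the spread between arrays or mice, since no replicate array exists, and it includes probe sets dim in 1 pool. Among the 15 receptors with several measured probe sets, these spanned a median of 0.78 in log2 difference, and the SD between probe sets of a receptor was 0.44. Over all genes that SD was 0.72. Among receptors dim in neither pool, the differences of Nr1h4, Nr1i3, Nr1d2, Nr2f2, Nr3c1 and Nr2f6 exceeded both SDs by their brightest probe sets. Those of Nr1i2, Nr0b2, Nr1h3, Esrra, Thrb and Nr6a1 exceeded the first only. This sorting is not a test of the differences. Nr1h4, Nr1i3, Nr2f6, Nr0b2, Nr1h3, Esrra and Thrb had 1 measured probe set each, so disagreement within these genes is unknown. By their least different probe sets, Nr1d2 (-0.56), Nr2f2 (-0.49) and Nr3c1 (-0.46) lay under the second SD, and Nr6a1 (-0.01) under both. Of the 64 measured probe sets of receptors, 50 were dim in neither pool, and 4 of these were lower and 1 higher by 2-fold or more, where 6.12% of 16469 such probe sets were lower and 5.64% higher. The other 9 receptor probe sets lower by as much were dim after kidney injury and could enter only through the sham pool.

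In bulk tissue, fewer cells of a type and less RNA per cell cannot be told apart, so markers of cell types are given beside the receptors. By their brightest probe sets, 5 of the 6 hepatocyte markers were higher after kidney injury by a log2 difference of 0.41 or more. Apoh stood at 0.01, and its 2 probe sets differed in sign. The summed signal went from 260600 to 394725, of which Fgb gave 35738.0 and 85965.7, while Nr1h4, Nr1i3 and Nr1i2 were lower. These 6 markers alone do not show how much hepatocyte RNA each pool held. Of 16 measured targets of Hnf4a, 10 were lower and 6 higher, from -4.11 for Slco1b2 to 0.49 for Apoa1, itself a marker. Beside Nr2f2, the 5 markers of sinusoidal endothelium had 3 members lower and 2 higher. Clec4g (-1.05) was at least 2-fold lower, Stab2 stood at -0.83, and Lyve1 (3.01) was at least 2-fold higher. Of their summed signals of 5536.6 and 6468.5, Lyve1 gave 326.8 and 2740.5. The stellate cell and fibroblast list had 5 of 6 members measured, 4 lower and 1 higher, with Lrat going from 346.7 to a dim 128.1 and Dcn at 1.02. Of its summed signals of 7261.7 and 10324.2, Dcn gave 3967.7 and 8037.4. Markers of biliary epithelium (3 of 3 measured), neutrophils (2 of 3) and pancreatic acini (3 of 4) were at least 2-fold higher by the measured signals, with summed signals of 571.8 and 2421.3, 945.5 and 2924.9, and 2985.4 and 6382.5. Krt19, Epcam, S100a8, S100a9, Cpa1 and Ctrb1 of these were dim in the sham pool, and the bound for Krt19 is 1.93-fold. No measured marker of Kupffer cells (6), lymphocytes (4) or kidney tubule (5) differed by 2-fold. The part of these lists in the receptor differences was not tested.

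Coregulators, which receptors recruit to open or close chromatin, lay on both sides of 0. The counts at 2-fold for these and the lists that follow stand beside the 9.59% of all measured genes that were lower and the 8.71% that were higher by as much. Of 15 measured coactivators, 9 were higher and 6 lower, with 1 at least 2-fold higher and a median of 0.16. The arginine methyltransferase Prmt1 went from 294.5 to 969.9 (1.67) and the p160 coactivator Ncoa2 from 980.5 to 1551.0 (0.65), while the acetyltransferase Kat2b went from 3486.7 to 1741.4 (1.99-fold lower, cross-hybridisation possible) and Ncoa4 stood at -0.47. Of 10 measured corepressors, 6 were higher and 4 lower, with 3 at least 2-fold higher, 0 lower by as much and a median of 0.11. Tbl1xr1 of the NCoR complex went from 2077.9 to 5639.1 (1.43, cross-hybridisation possible), Ncoa5 from 354.7 to 744.6 (1.04), Tbl1x from 1395.7 to 827.0 (-0.74) and Sirt1 from 485.3 to 320.5 (-0.58).

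Chaperones that hold steroid receptors ready for ligand were split. Of 9 measured, 4 were lower and none higher by 2-fold or more, with a median of -0.16, against 9.59% lower and 8.71% higher over all measured genes. The immunophilin Fkbp4 went from 1058.8 to 260.2 (-1.96) and the HSP40 protein Dnaja1 from 5071.7 to 1576.9 (-1.68). The rival immunophilin Fkbp5, itself induced by glucocorticoids, went from 2708.1 to 3836.1 (0.50), and Hsp90aa1 stood at 0.79.

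Enzymes and carriers that make, clear or deliver the ligands were mostly lower. Of 15 measured, 14 were lower, 8 of them at least 2-fold, and 1 was higher, with a median of -1.46, against a median of -0.01 and 9.59% at least 2-fold lower over all measured genes. Of the 8, Cyp2r1 was dim after kidney injury, at least 2.37-fold lower. Dhrs3, which turns retinaldehyde back to retinol, went from 2802.6 to 343.7 (-2.97), and Cyp7a1, which starts bile acid synthesis, stood at -3.19. The only higher gene of this list was Sult1e1, which inactivates oestrogens and was dim in the sham pool, at least 18.5-fold higher.

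Lists of known targets differed in direction. These lists came from textbook knowledge, were written with earlier results of these data known and share genes. For Nr1h4, 8 of 10 targets were measured, 2 lower and 1 higher by 2-fold or more (median -0.14). The bile salt pump Abcb11 (-2.95) and the phospholipid floppase Abcb4 (-1.37) were lower, Apoc2 was higher (1.78) and Baat stood at 0.26. For Nr1i3 and Nr1i2, 14 of 16 measured targets were lower, 6 of them at least 2-fold, and 1 was at least 2-fold higher (median -0.75). Aldh1a1 went from 21859.2 to 3622.7 (-2.59) and the transporter Slco1a4 from 1731.6 to 327.9 (-2.35), whereas Cyp2b10, the classic target of Nr1i3, was 700.8 and 791.4 (0.17, cross-hybridisation possible).

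Targets of Ppara were spread to both sides, 4 of 19 higher and 3 lower by 2-fold or more (median 0.09). Of these, Pdk4 and Cidec were dim in the sham pool and could enter only through the kidney injury pool. They were at least 49.2-fold and 15.8-fold higher. Acot1 was dim after kidney injury, at least 2.05-fold lower. Plin2, a lipid droplet coat, stood at 2.70 and the thioesterase Acot2 at 1.34, while Cyp4a14 stood at -2.03 and the thiolase Acaa1b at -1.01. For Nr1h3, 2 of 13 targets were lower and 1 higher by 2-fold or more (median -0.27). The sterol exporter Abca1 went from 5836.1 to 15671.8 (1.42) and Abcg1 stood at 0.35, but Abcg5, of the biliary sterol exporter, went from 2254.5 to 1017.5 (-1.14) and fatty acid synthase Fasn stood at -1.84.

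Of 16 measured targets of Hnf4a, 6 were at least 2-fold lower and 0 higher by as much (median -0.61), while Hnf4a itself differed little. The uptake carrier Slco1b2 (-4.11) and Cyp7a1 were lowest, and Apoa1 (0.49) and Serpina1c (0.46) highest. Of 10 measured genes repressed by the REV-ERB proteins or activated by RORs, 3 were higher and 2 lower by 2-fold or more (median 0.06). Insig2, which restrains sterol synthesis, stood at 2.12 and the vasopressin receptor Avpr1a at 1.23, with Elovl3 at -1.06 and the oxysterol hydroxylase Cyp7b1 2.01-fold lower.

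Targets of the glucocorticoid receptor were mostly higher. Of 20 measured, 8 were higher and 2 lower by 2-fold or more (median 0.63), while Nr3c1 was lower. Of these, Sult1e1, Lcn2 and Pdk4 were dim in the sham pool and could enter only through the kidney injury pool. They were at least 18.5-fold, 189-fold and 49.2-fold higher. The metallothioneins Mt2 (5.01) and Mt1 (4.48, cross-hybridisation possible) were higher, and Tsc22d3 went from 2878.9 to 590.9 (-2.25) and Pck1 stood at -1.18. Several of these genes also answer to inflammation. Of 11 thyroid hormone targets, 4 were lower and 1 higher by 2-fold or more (median -0.32), led by the deiodinase Dio1 (-2.45) and the lipogenic Thrsp (-1.86), with the shuttle enzyme Gpd2 at 1.43 and Bcl3 at 0.61.

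**Figure D4:**
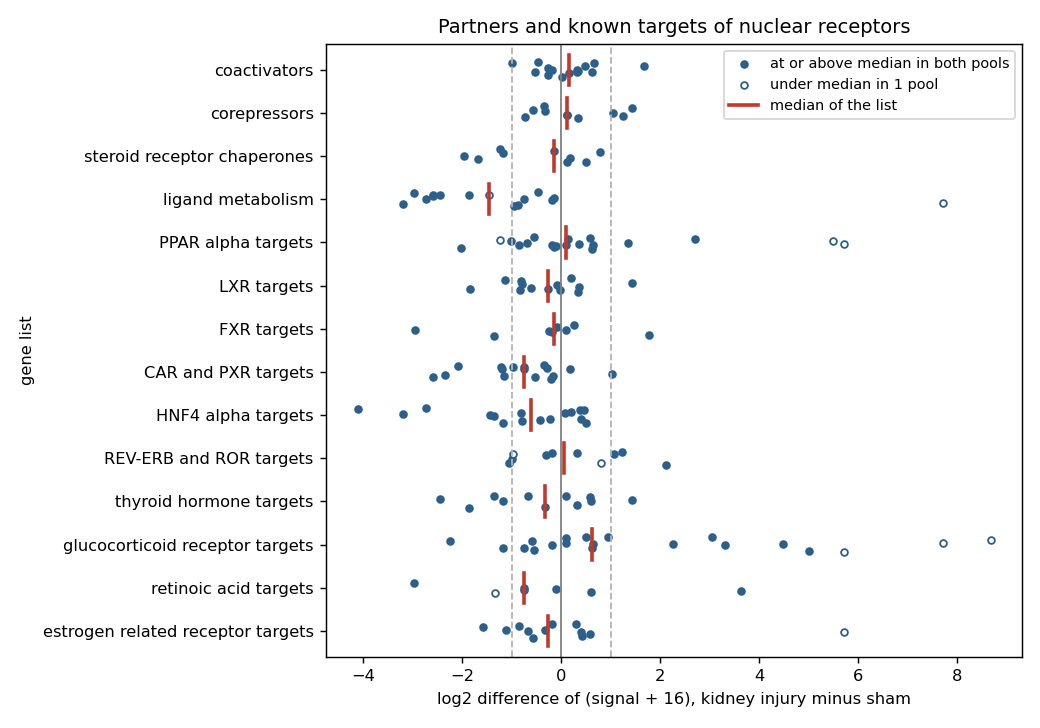
Each point is a measured gene of a list of receptor partners or targets, placed by its log2 difference of signal plus 16, kidney injury minus sham, with small random vertical offsets. Open points had a dim signal in 1 pool, red ticks are list medians, and dashed lines mark 2-fold. Ligand metabolism has the lowest median (-1.46) and the glucocorticoid receptor targets the highest (0.63).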

How the data were processed

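The authors deposited a microarray intensity for each of 45037 probe sets and 64 controls, on a linear scale. With 2% trimmed from either end, the mean intensity was 500.0 for each array, which shows a common scaling before deposit. No source used here names the summarising software. Samples were grouped by their treatment label. Gene names came from the platform annotation, which can be old: 34945 probe sets had 1 gene, 932 several and 9160 none. For 34741 of them the current symbol was looked up through the Entrez ID, whether or not it had changed. The members, lists and settings were chosen with earlier results of these data known.

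Values were taken as log2 of signal plus a pseudocount of 16. A probe set entered when its brighter signal reached the array median, which left 13117 genes, each read by its brightest measured probe set (mean log2 over both arrays). For a gene dim on 1 array, the fold is a bound against that array's median. Genes were named by rule: every receptor, and of each list up to 2 highest and 2 lowest differences among genes dim on neither array whose probe sets had the same sign. Sult1e1, Lcn2, Pdk4, Cidec, Acot1, Cyp2r1, Clec4g, Stab2, Lyve1, Lrat and Dcn, and the dim markers, were named after their values were seen. Probe sets ending in _x_at or _s_at can cross-hybridise. Having 1 array per group limits the precision, and no test was run. Computation used Python 3.11.15, numpy 2.4.6 and pandas 2.3.3. The steps were also run on simulated arrays with less noise than probe sets of a gene show here, which checks the code only.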

Additional observations from a re-analysis of the deposited data

How the results depend on the processing

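Of 14 alternatives in scaling, pseudocount, filter, choice of probe set and symbols, Nr1h4 and Nr1i3 were at least 2-fold lower in all 14, and Nr1d2 and Nr2f2 in 12, standing at -0.56 and -0.49 when the least different probe set stood for the gene. Nr3c2, Thra, Nr4a2 and Nr4a3, dim after kidney injury, entered only through the sham pool, and most alternatives reuse the same dim signal. How many alternatives left them 2-fold lower therefore says nothing about their size. With dim signals raised to the median none was 2-fold lower, at -0.25 (Nr3c2), -0.54 (Thra), -0.33 (Nr4a2) and -0.96 (Nr4a3). Without a filter Nr4a2 stood at -0.09. None of Nr1h4, Nr1i3, Nr1d2 and Nr2f2 changed sign in any of the 14. Of the 30 measured receptors, 8 were at least 2-fold lower as reported. That count was 4 with the filter at the 75th percentile (25 receptors, 9.79% of all genes), with both signals required to reach the median (26 receptors, 6.17%) and with dim signals raised to the median (6.62%). It was 10 against the bacterial and phage controls (15.5% of all genes) and 10 without a filter (37 receptors, 9.99%). It was 14 at a 1.5-fold threshold (19.3%) and 4 at a 3-fold threshold (4.49%). The count at least 2-fold higher was 0 except without a filter, where it was 1, Nr2f1, which is dim on both arrays. The median log2 difference, -0.56 as reported over the 30, was -0.40 without a filter, -0.40 at the 75th percentile, -0.38 with both signals at the median, -0.38 with dim signals raised, -0.43 with the least different probe sets and -0.85 against the controls. No paired analysis was possible because each group has 1 array.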

Other observations

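Some further nuclear receptor genes outside the list above were also read by the array, and Nr0b1 and Esr2 of these were dim on both arrays. The progesterone receptor Pgr had signals of 823.0 (sham) and 699.4 (kidney injury) and a log2 difference of -0.23. Esrrb had signals of 373.1 and 431.1, with 2 of its 3 measured probe sets going the other way. Nr5a1, the steroidogenic factor of adrenal and gonad, went from 431.5 to a dim 183.7, at least 1.66-fold lower, and Rorb from 377.1 to a dim 185.7, at least 1.46-fold lower. Nr2e1 went from a dim 191.0 to 321.1, at least 1.23-fold higher. A further probe set, shared by Ppard and another gene, had dim signals of 113.5 and 210.6.

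Targets of retinoic acid had 7 of 9 genes measured, 2 lower and 1 higher by 2-fold or more in measured signal, with a median log2 difference of -0.75. Lrat, among the lower, was dim after kidney injury, with a bound of 1.34-fold. Cyp26a1, which degrades retinoic acid, went from 983.9 to 576.6 (-0.75), whereas transglutaminase Tgm2 went from 1951.6 to 24472.7 (3.64). Of 12 targets of the oestrogen related receptors, 2 were lower and 1 higher by 2-fold or more, with a median of -0.26. The higher gene, Pdk4, was dim in the sham pool and could enter only through the kidney injury pool. It was at least 49.2-fold higher and is also on the lists of Ppara and glucocorticoid receptor targets. The complex I subunit Ndufs1 (-1.59) and the electron carrier Etfa (-1.13) were lowest, and cytochrome c (Cycs, 0.58) and Cox6c (0.42) highest among genes dim on neither array.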
